A study of Mus musculus with 24 samples.

Results

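Smoc2 and 9 other genes (Pigt, Hnrnpa0, Irf2bp2, Wnk1, Snrpd3, Qpct, Lrrc17, Anpep and Pfas) were listed because at least 1 of their probes had a large ratio 6 h after dihydrotestosterone (DHT) in the mouse urogenital sinus. The members were all probes of these genes, 19 probes of 10 genes among 41174 probes on the array. The files name 12 of the probes by the listed symbol and 7 by an older one, Hnrpa0 for Hnrnpa0 and Prkwnk1 for Wnk1. In each gene the probe with the largest mean 6 h ratio is called the leading probe below. The 6 h ratios chose these genes, so they are described without a test. The 12 h and male-female ratios were not used in the choice, and those were tested, in a fit whose estimate of spread draws on all 12 pairs, the 6 h pairs included.

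The urogenital sinus is the embryonic tube of epithelium and surrounding mesenchyme from which the prostate buds in males. DHT is the potent androgen made from testosterone in that tissue, and it acts through the androgen receptor, a DNA-binding transcription factor. The 10 genes belong to no single pathway. SMOC2 is a secreted calcium-binding matrix protein of the SPARC family and LRRC17 a secreted leucine-rich repeat protein. PIGT is a subunit of the enzyme complex that attaches glycosylphosphatidylinositol (GPI) anchors to proteins. HNRNPA0 binds RNA, SNRPD3 is a core Sm protein of the spliceosome, and IRF2BP2 is a transcriptional corepressor. WNK1 is a kinase that controls chloride cotransport. ANPEP (aminopeptidase N) and QPCT (glutaminyl cyclase) act on the N-termini of peptides, and PFAS is an enzyme of purine synthesis.

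All embryos were C57/Bl6J. In the 6 h group, 4 pools of female embryos whose mothers received 50 mg/kg DHT at 16 days post coitum were each set against a pool of vehicle-treated females. In the 12 h group, 3 DHT pools were set against 3 vehicle pools in the same way. In the third group, 5 pools of untreated males were set against 5 pools of their female littermates at 17.5 days, a point that the labels count as 48 h. Each pool held RNA of several embryos, and each pair of pools was hybridised on 2 arrays with the dyes exchanged, so 24 arrays gave 12 pairs. Males and females differ in age and endogenous hormone from the treated embryos, and the male-female group does not separate androgen from the other differences between the sexes. In such bulk samples, fewer cells of a type and less RNA per cell cannot be told apart.

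Some facts of the arrays touch every 6 h value. The Y-linked Eif2s3y had a log2 signal of 5.98 to 6.40 in the 6 h DHT pools, against 6.02, 8.65, 7.64 and 7.80 in the vehicle pools of pairs 1 to 4. It was 8.51 to 9.01 in male pools and 5.99 to 6.37 in female pools, and 5.90 to 6.16 in the 12 h pools. The 6 h vehicle pools of pairs 2 to 4 thus carried Y-linked RNA although they are labelled female, and that of pair 1 lay at the level of the female pools. The X-linked Xist did not follow the same pairs throughout. Its log2 ratio of DHT over vehicle was −0.35, 1.07, 0.22 and −0.13 in 6 h pairs 1 to 4, and 0.56, 0.16 and −0.23 in the 12 h pairs. Male over female it was −5.91 to −4.99. Across all probes, which are not independent, the log2 ratios of the 2 arrays of a pair correlated at −0.51 to −0.08 at 6 h, at −0.22 to 0.09 at 12 h and at 0.35 to 0.74 in male-female pairs. The defining markers of the tissue were present in all 24 pools. Log2 signals were 8.77 to 10.24 for epithelial Epcam, 10.19 to 13.57 for epithelial Krt8, 11.08 to 12.05 for mesenchymal Pdgfra and 12.93 to 14.49 for smooth muscle Acta2. The median spot signal per array was between 98.1 and 151, and all 19 probes passed the filter on dim probes.

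Promoter sequence was at hand for 7 of the 10 genes, from RefSeq on GRCm38.p6, as 250 bases before to 50 after each start. The palindrome that the androgen receptor binds, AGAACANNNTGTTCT, was in none of them, and it was in 3 of 32851 promoters of that length, or 0.00913%. A single arm of it, AGAACA or TGTTCT on either strand, was in 19.0% of all promoters and in that of 1 member, Lrrc17 (chr5:21543277-21543576, plus strand). That promoter is shown because it holds the arm at both −130 and 19 bases from the start, and 2.51% of all promoters had at least 2 matches. The matches are in capitals, and a match is a description of the letters, not a site.
Lrrc17: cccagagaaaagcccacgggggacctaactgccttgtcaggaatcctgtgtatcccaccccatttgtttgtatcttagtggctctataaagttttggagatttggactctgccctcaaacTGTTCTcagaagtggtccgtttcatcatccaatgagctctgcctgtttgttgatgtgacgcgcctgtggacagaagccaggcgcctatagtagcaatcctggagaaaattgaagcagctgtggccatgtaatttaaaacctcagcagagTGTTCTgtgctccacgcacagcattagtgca

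Smoc2 (chr17:14279490-14404790, GRCm38.p6) had probes that disagreed in size at 6 h. The log2 ratio of DHT over vehicle at its leading probe, A_52_P646762, was −0.59, −0.77, −0.72 and −0.64 in pairs 1 to 4. The mean of −0.68 ± 0.08 (SD, n = 4) is 1.60-fold lower with DHT and was the 6th lowest of 35477 probes. The second probe, A_51_P213045, had −0.18, −0.19, −0.15 and −0.14, a mean of −0.17 ± 0.02 (SD, n = 4). Under 10 other settings its mean ran from −0.24 to −0.15, and that of the leading probe from −0.75 to −0.65. Both probes were below 0 in every pair and on all 8 arrays, and the ranges of the 2 probes did not overlap. The leading probe lay lower than the second by 0.41 to 0.58 in each of the 4 pairs. Its log2 signal was 8.78, 8.69, 8.72 and 8.68 in DHT pools, against 9.37, 9.46, 9.43 and 9.32 in vehicle pools, so the groups did not overlap.

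Pigt, on chromosome 2, also had probes that disagreed. Its leading probe, A_51_P338803, had 6 h log2 ratios of −0.86, −0.85, −0.53 and −0.70, a mean of −0.73 ± 0.15 (SD, n = 4), the fifth lowest of all probes. The second probe, A_52_P215093, averaged 0.05 ± 0.08 (SD, n = 4). It was far dimmer, with a mean log2 signal of 6.49 in 6 h vehicle pools against 13.67 at the leading probe. On single arrays the second probe ran between −0.44 and 0.70 and was above 0 on 4 of 8 arrays, the 4 of one dye orientation, with a mean dye effect of −0.34. The leading probe was below 0 on 8 of 8 arrays with a mean dye effect of 0.04. The leading probe's signal was saturated on 6 of 10 male and 5 of 10 female channels and on 2 of 6 channels of each 12 h group. Those later ratios may thus be held in by the scanner's upper limit, which was not tested. In the male-female pairs the leading probe had a mean dye effect of −0.44, and 5 of 10 arrays had the sign of its mean.

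Hnrnpa0 and Wnk1 also had probes that differed at 6 h, and in both the leading probe was brighter than the others. The leading Hnrnpa0 probe, A_51_P517423, had 6 h log2 ratios between −0.66 and −0.47 with a mean of −0.55 ± 0.09 (SD, n = 4), against −0.06 ± 0.05 at A_52_P625431. The second Hnrnpa0 probe had a mean dye effect of −0.35 and was well above background in 5 of 8 DHT channels and 7 of 8 vehicle channels at 6 h. Of the 5 Wnk1 probes, A_52_P82209 had −0.55, −0.50, −0.64 and −0.38, a mean of −0.52 ± 0.11 (SD, n = 4). The means of the other 4 Wnk1 probes lay between −0.09 and 0.04. In 6 h vehicle pools the mean log2 signal was 8.79 at the leading Wnk1 probe and 7.77, 6.96, 6.73 and 6.33 at the others. It was 8.31 and 6.39 at the leading and second Hnrnpa0 probes. For scale, Eif2s3y had 5.99 to 6.37 in female pools. Under 10 other settings the 6 h mean ran from −0.24 to −0.03 at the second Hnrnpa0 probe and from −0.71 to −0.51 at the leading one. The part of low signal in the gaps between probes was not tested. The files used here hold no probe sequences, so which part of a transcript each probe reads was not examined.

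Snrpd3 was the gene with lower 6 h ratios whose probes agreed in size. Probe A_52_P523179 had log2 ratios of −0.43, −0.85, −0.53 and −0.22, and A_51_P176681 had −0.40, −0.69, −0.56 and −0.21. The means were −0.51 ± 0.27 and −0.46 ± 0.21 (SD, n = 4), and the probes differed by at most 0.16 in any pair. Irf2bp2, on the array as a single probe, had −0.65, −0.55, −0.34 and −0.47, a mean of −0.50 ± 0.14 (SD, n = 4). In both genes every pair was below 0.

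Qpct, Lrrc17, Anpep and Pfas were the members with higher 6 h signal under DHT. Qpct had log2 ratios of 0.66, 0.50, 0.43 and 0.30 in pairs 1 to 4, a mean of 0.47 ± 0.15, and Lrrc17 had 0.59, 0.33, 0.24 and 0.29, a mean of 0.36 ± 0.16 (SD, n = 4). Anpep spread most among these 4 genes, with 0.75, 0.51, 0.21 and 0.14 and a mean of 0.40 ± 0.28. For Pfas the leading probe A_52_P599624 had 0.37, 0.55, 0.25 and 0.36, a mean of 0.38 ± 0.13, and A_51_P181097 averaged 0.06 ± 0.12. The mean log2 signal of these Pfas probes in 6 h vehicle pools was 7.98 and 6.56 in turn, so the second was the dimmer. Leading probes of all 10 genes kept their sign on 8 of 8 arrays at 6 h, which probes picked for a large 6 h mean are prone to do. The share of all probes that did so is not given here. For scale, the fit called 599 of 35477 probes at 6 h, or 1.69%, with 161 higher (0.454%) and 438 lower (1.23%), and 271 (9 higher and 262 lower) with median centring in place of loess. The members were chosen from that contrast, so nothing is read from it.

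**Figure D1:**
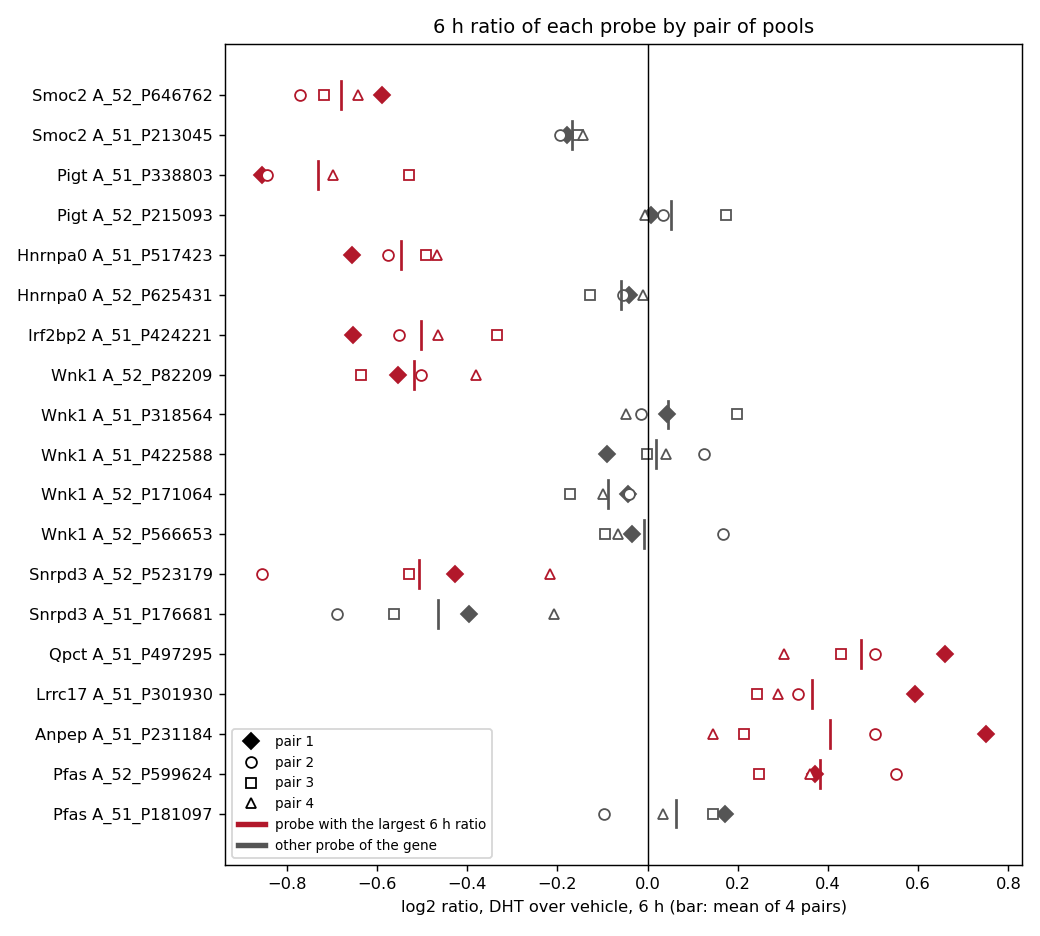
Log2 ratio of DHT over vehicle at 6 h (x axis) for each of the 19 probes (rows), 1 symbol per pair of pools, with a bar at the mean of 4 pairs. Leading probes are red and other probes of the same gene grey. The Snrpd3 probes lie together, while the second probes of Smoc2, Pigt, Hnrnpa0, Wnk1 and Pfas lie nearer 0.

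**Figure D2:**
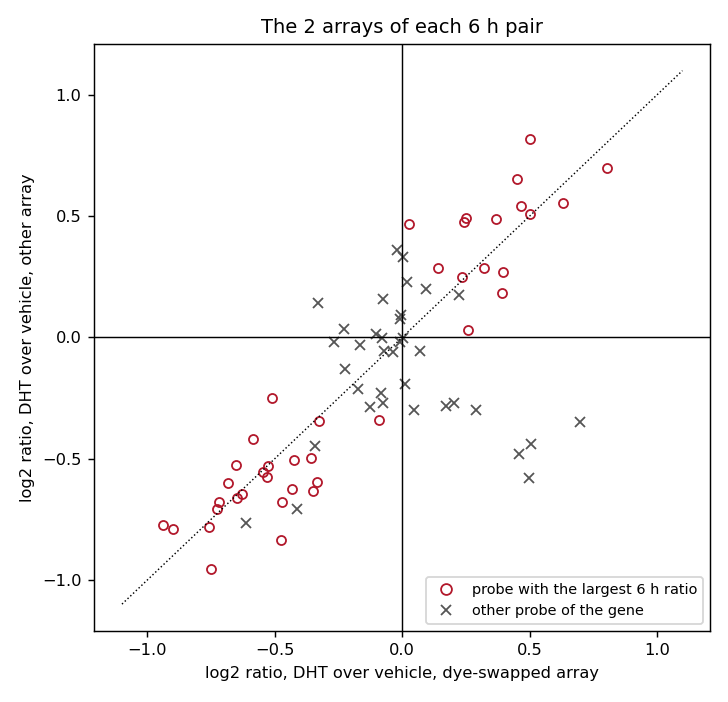
The log2 ratio of DHT over vehicle on the other array of each 6 h pair (y axis) against that on the dye-swapped array (x axis), 4 points per probe, with a dotted line of equal ratios. Leading probes (circles) have the same sign on both arrays of every pair, while crosses in the lower right are mainly the second probes of Pigt and Hnrnpa0.

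Pair 1, whose vehicle pool had no Y-linked signal above that of female pools, differed from pairs 2 to 4 by gene. Of the 4 genes higher at 6 h, 3 had their largest ratio in pair 1. Anpep had 0.75 in pair 1, against a mean of 0.29 over pairs 2 to 4 with a range of 0.14 to 0.51. Lrrc17 had 0.59 against a mean of 0.29, and Qpct 0.66 against 0.41, both above the range of the other pairs. Pfas had 0.37 in pair 1 and 0.39 over the others.

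Among the 6 genes lower at 6 h, pair 1 was the largest in size for Pigt, Hnrnpa0 and Irf2bp2 and lay within the range of the others for Wnk1 and Snrpd3. Smoc2 was the gene whose ratio in pair 1, −0.59, was the smallest of the 4, against a mean of −0.71 over pairs 2 to 4. All 10 genes had the same sign in pair 1 as over pairs 2 to 4. These values are descriptions of the contrast that chose the genes.

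The marker lists moved across the same pairs. The mean log2 ratio over 22 epithelial markers was −0.53, −0.42, −0.10 and −0.02 in pairs 1 to 4, with 22 of 22 below 0 in pair 1. That of 16 immune markers was 0.27, 0.21, 0.10 and 0.12, and that of 11 mesenchymal markers 0.24, 0.14, 0.01 and 0.01. That of 10 neuron and Schwann cell markers was 0.44, 0.10, 0.01 and −0.05, that of 12 skeletal muscle markers −0.40, −0.31, 0.18 and −0.01, and that of 10 smooth muscle markers −0.29, −0.04, −0.08 and −0.01. Red cell markers averaged 0.27, 0.22, −0.31 and −0.02, and the endothelial, duct and gonad lists lay between −0.04 and 0.12. The 4 Y-linked genes averaged −0.14, −1.27, −0.68 and −0.74. Anpep, Qpct and Lrrc17 had their highest ratio in pair 1. In that pair the epithelial, skeletal muscle and smooth muscle means were at their lowest, and the neuron and Schwann cell, immune, red cell and mesenchymal means at their highest. The part of tissue share and of Y-linked RNA in the members' ratios was not tested.

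**Figure D3:**
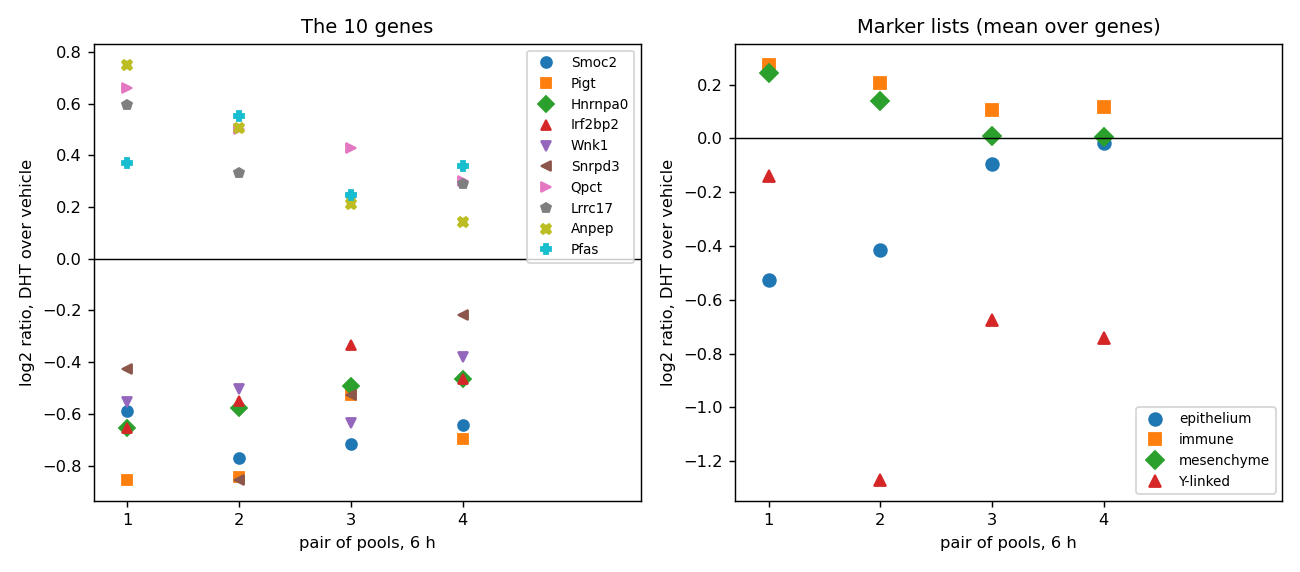
Log2 ratio of DHT over vehicle in the 4 pairs of pools at 6 h (x axis), on the left for the leading probe of each of the 10 genes and on the right for the mean of 4 marker lists. Each point is 1 pair. The Y-linked list is near 0 in pair 1 alone, and epithelial markers are lowest in pairs 1 and 2.

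At 12 h none of the 19 member probes passed the test. Limma's moderated test, adjusted by Benjamini-Hochberg over 35477 probes, called 98 probes at 12 h, or 0.276%, and 0 of the 19 member probes. An unadjusted p under 0.05 was reached by 5 of them, where 15.0% of all probes did so. Over 485 values of member probes under alternative settings, 1 passed the threshold. Several of those settings called 0 of all 35477 probes at 12 h, so members uncalled there add little. Of the 10 leading probes, 8 had an SD over the 3 pairs that exceeded the size of the 12 h mean.

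The 12 h log2 ratios of the leading Smoc2 probe were −0.08, 0.00 and 0.03, a mean of −0.01 ± 0.05 (SD, n = 3), and the interval of the fit was −0.15 to 0.12. The second Smoc2 probe averaged −0.02 ± 0.04. The difference between the Smoc2 probes, −0.51 ± 0.07 at 6 h, was 0.01 ± 0.04 at 12 h. Qpct averaged 0.04 ± 0.16, Anpep 0.02 ± 0.11, Pfas −0.03 ± 0.15 and Irf2bp2 0.07 ± 0.12 (SD, n = 3). Intervals of the fit were −0.11 to 0.20 for Qpct and −0.21 to 0.25 for Anpep.

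Snrpd3 lay on the other side of 0 at 12 h. Its probe A_51_P176681 had 0.39, 0.14 and 0.44 and A_52_P523179 had 0.39, 0.08 and 0.42. The means were 0.32 ± 0.16 and 0.30 ± 0.19 (SD, n = 3), with adjusted p = 0.104 and adjusted p = 0.172 by limma, above the threshold. Lrrc17 kept its sign, with 0.00, 0.25 and 0.44 and a mean of 0.23 ± 0.22 (adjusted p = 0.195 by limma). In the same 12 h pairs the mean of the epithelial markers was −0.01, 0.27 and 0.53, with 21 of 22 above 0 in pairs 2 and 3, and that of 12 skeletal muscle markers was 0.03, 0.37 and 0.735. Lrrc17 and both lists were lowest in pair 1 and highest in pair 3, while Snrpd3 was lowest in pair 2. The means of the other tissue lists lay between −0.33 and 0.07 at 12 h, and the part of tissue share in these ratios was not tested. The lowest adjusted p among members was 0.0753, at the Wnk1 probe A_51_P422588, whose mean was −0.20 ± 0.07 and which had averaged 0.02 at 6 h.

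Between male and female littermates, Qpct and Anpep were lower in males. Smoc2 was called higher in males by a small margin, and both of its calls were lost with 6 h pairs left out of the fit, with median centring and without any 1 of 4 male-female pairs. Limma called 2197 probes, or 6.19%, and 4 of the 19 member probes, 2 of them higher in males (3.11% of all probes) and 2 lower (3.08%). With median centring in place of loess the 2197 probes, 1104 higher and 1093 lower, became 685 higher and 1077 lower, and the member probes called became 0 higher and 3 lower, with Irf2bp2 joining Qpct and Anpep.

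Anpep, a membrane peptidase found on epithelial, stromal and myeloid cells, had male-female log2 ratios of −0.20, −0.35, −0.66, −0.52 and −0.64. Its log2 signal was 8.92, 8.74, 8.56, 8.54 and 8.32 across male pools in falling order, against 9.22, 9.18, 9.13, 9.09 and 8.84 across female pools, with male pools the lower in every pair. The mean of −0.47 ± 0.19 (SD, n = 5) is 1.39-fold lower in males, with an interval of −0.65 to −0.30 and adjusted p = 0.00288 by limma. In the same pairs, immune markers averaged −0.26, −0.10, −0.05, −0.29 and −0.25, mesenchymal markers −0.14, 0.03, −0.49, −0.65 and −0.05, and epithelial markers 0.06, 0.31, 0.51, 0.42 and 0.23. Skeletal muscle markers averaged 0.32, −0.40, 1.41, 0.005 and 0.275, and red cell markers 0.195, 0.157, 0.93, 0.235 and −0.47. Smooth muscle markers had −0.12, −0.09, −0.04, −0.55 and −0.22, and neuron and Schwann cell markers −0.09, 0.06, −0.50, −0.15 and 0.21. Duct markers had −0.28, −0.16, −0.09, −0.01 and −0.22, below 0 in every pair like Anpep. Endothelial markers had −0.06, 0.07, −0.14, −0.23 and 0.10, and gonad markers lay between −0.04 and 0.05. The part of these tissue lists in the Anpep ratio was not tested.

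Qpct, which forms N-terminal pyroglutamate on peptides, had −0.21, −0.09, −0.23, −0.31 and −0.35, below 0 in 5 of 5 pairs. Its mean was −0.24 ± 0.10 (SD, n = 5), 1.18-fold lower in males, with adjusted p = 0.0177 by limma. Without male-female pair 4 or pair 5 the adjusted p was 0.0829 or 0.0664.

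The Smoc2 probes, which disagreed at 6 h, gave like values between the sexes. The leading probe had 0.17, 0.36, −0.05, 0.18 and 0.30, and the second probe 0.10, 0.32, 0.00, 0.08 and 0.37, above 0 in 4 of 5 pairs at both. The means were 0.19 ± 0.16 and 0.17 ± 0.16 (SD, n = 5), or 1.14-fold and 1.13-fold higher in males, with adjusted p = 0.0321 and adjusted p = 0.0457 by limma. The SD is nearly as large as the mean, and the calls were lost in 11 of 26 alternatives for the leading probe and in 17 of 25 for the second. Leaving out male-female pair 1, 2, 4 or 5 lost both calls, with adjusted p of 0.0578 to 0.177. With the 6 h pairs, whose values chose the gene, left out of the fit, adjusted p by limma was 0.0818 at the leading probe and 0.129 at the second. With median centring it was 0.315 and 0.307, and with each comparison fitted alone 0.191 and 0.261. The log2 signal of the leading probe was 8.57 to 9.13 in male pools and 8.33 to 8.83 in female pools, so these groups overlapped across pairs.

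Other members did not pass the test between the sexes. Irf2bp2 came nearest, with −0.30, −0.29, −0.16, −0.36 and 0.06, a mean of −0.21 ± 0.17 (SD, n = 5) and adjusted p = 0.0526 by limma. Its sign was that of its 6 h ratio, and it passed in 7 of 26 alternatives. Pigt averaged 0.04 ± 0.27 at its partly saturated leading probe and 0.09 ± 0.08 at the second. Snrpd3 averaged 0.10 ± 0.13 at both probes, Lrrc17 0.05 ± 0.12, and the leading probes of Hnrnpa0, Wnk1 and Pfas 0.07 ± 0.09, −0.10 ± 0.30 and −0.13 ± 0.18 in turn.

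**Figure D4:**
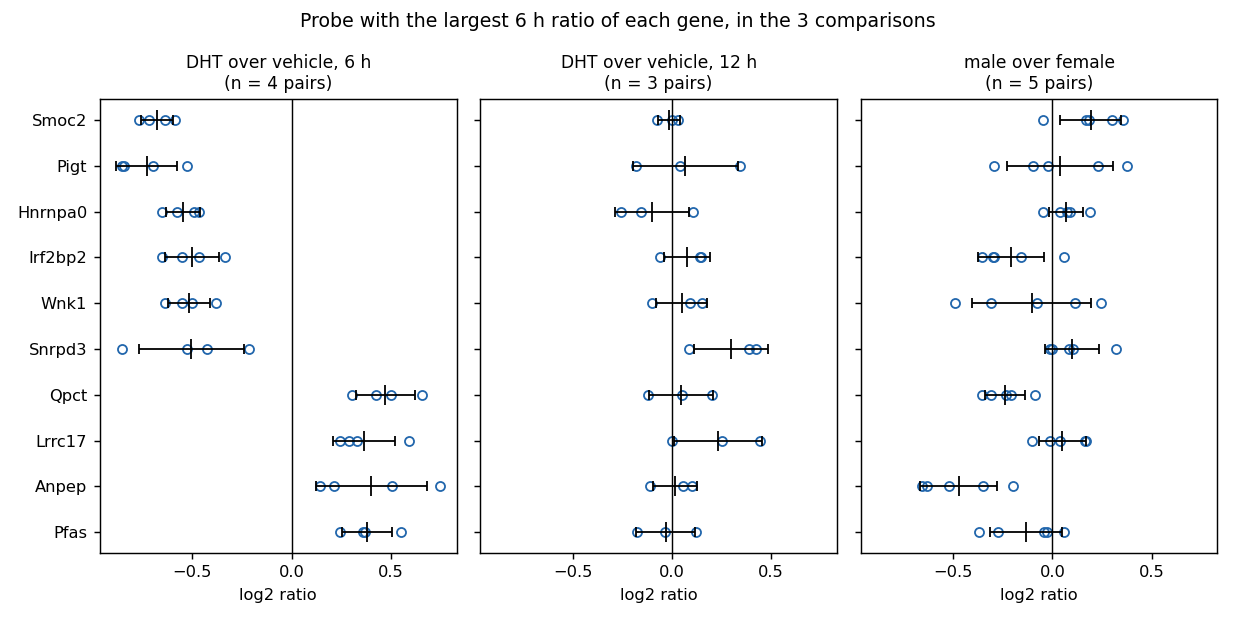
Log2 ratios (x axis) of the leading probe of each gene (rows) in pairs of pools at 6 h, at 12 h and between the sexes. Circles are pairs, and bars with caps are mean and SD. The 6 h points of each gene lie on 1 side of 0, the 12 h points lie around 0 except those of Snrpd3 and Lrrc17, and Anpep and Qpct lie below 0 in every male-female pair.

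Probes of the same gene were compared directly in the male-female pairs. The difference between the leading probe and each other probe, 9 probe pairs in 6 genes, was tested by an exact two-sided sign-flip permutation over 5 pairs, which cannot go below 0.062. Pfas reached that value, its leading probe lying lower than the second by 0.07 to 0.33 in 5 of 5 pairs with a mean of −0.16 ± 0.11 (SD), and its adjusted p was 0.562 over the 9 probe pairs by the exact permutation test. The Smoc2 probes differed by 0.02 ± 0.08 (exact permutation p = 0.688). The Pigt pair is among the 9 but is not read, because saturation may limit the ratios of its leading probe at 12 h and between the sexes. The gap between the Hnrnpa0 probes was 0.02 ± 0.09 at 12 h (SD, n = 3) and −0.49 ± 0.11 at 6 h (SD, n = 4).

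The male-female ratio minus the 12 h DHT ratio was also tested for each probe. Limma called 472 probes in that contrast, or 1.33%, and 0 of the 19 member probes, while 7 had an unadjusted p under 0.05, as did 15.4% of all probes. The largest difference was that of Anpep, −0.49 with an interval of −0.78 to −0.20 and adjusted p = 0.0973 by limma. For Qpct it was −0.28 (adjusted p = 0.150) and for the leading Smoc2 probe 0.21 (adjusted p = 0.233), both by limma. A p above the threshold does not show that the comparisons were alike.

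The log2 signal of Smoc2 at its leading probe was 8.72 ± 0.04 in DHT pools and 9.40 ± 0.06 in vehicle pools at 6 h (SD, n = 4 each). It was 9.39 ± 0.05 in DHT pools and 9.40 ± 0.01 in vehicle pools at 12 h (SD, n = 3 each), and 8.81 ± 0.23 in males and 8.62 ± 0.23 in females (SD, n = 5 each). From the top, the order was both vehicle groups and the 12 h DHT pools, which did not differ beyond their spread, and then males, 6 h DHT pools and females, whose ranges overlapped. Those ranges leave out the pairing of males with females that the test above uses. Qpct was highest in 6 h DHT pools, at 8.06 ± 0.08, against 7.59 ± 0.12 in 6 h vehicle pools. Those groups did not overlap, in the contrast that chose the gene. Qpct had 6.98 ± 0.14 in DHT pools and 6.94 ± 0.13 in vehicle pools at 12 h. It had 7.08 ± 0.21 in males and 7.32 ± 0.14 in females, with males overlapping both 12 h groups and females. The 6 h vehicle pools, at 7.44 to 7.71, overlapped females, at 7.19 to 7.51. Anpep had 9.16 ± 0.04 in DHT pools and 8.75 ± 0.29 in vehicle pools at 6 h, 8.47 ± 0.12 in DHT pools and 8.46 ± 0.05 in vehicle pools at 12 h, and 8.62 ± 0.23 in males and 9.09 ± 0.15 in females. The Anpep signals of 6 h DHT pools and females overlapped at the top of the order, and those of males and both 12 h groups overlapped at the bottom. The 6 h vehicle pools, at 8.37 to 8.99, overlapped males, both 12 h groups and females, so the order has no clean break. Per the labels, each comparison was hybridised on a day of its own, so day, age and treatment cannot be told apart in levels set across comparisons.

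**Figure D5:**
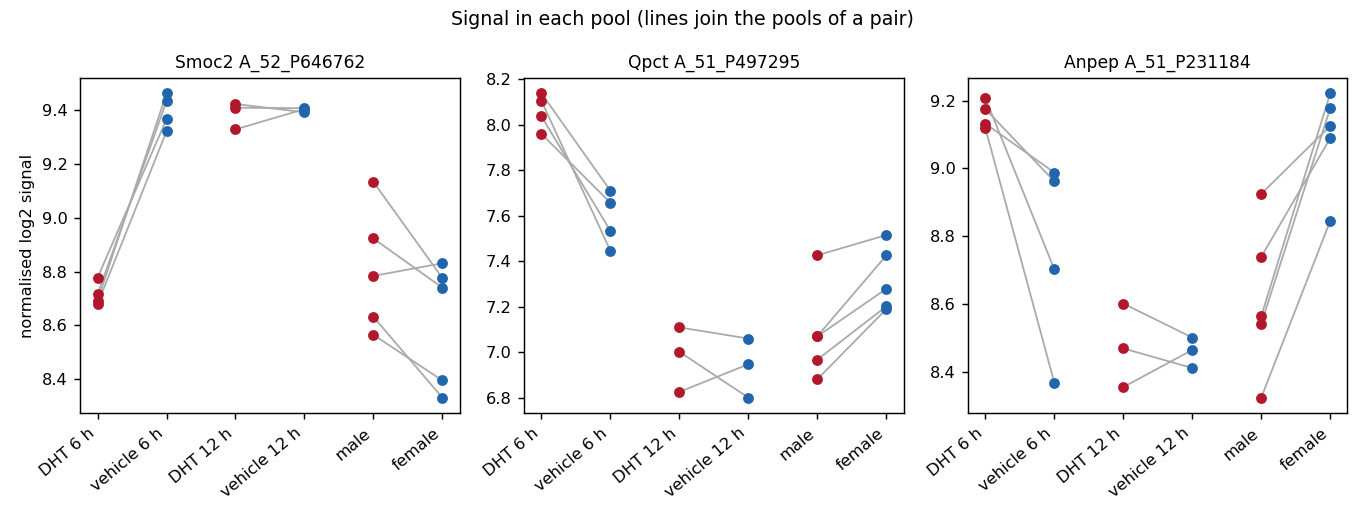
Normalised log2 signal (y axis) in each pool (x axis) for the leading probes of Smoc2, Qpct and Anpep. Red points are DHT or male pools, blue points vehicle or female pools, and grey lines join the pools of a pair. The Smoc2 lines run the same way in all 4 pairs at 6 h and are nearly flat at 12 h, and the Anpep lines rise towards females in all 5 pairs.

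The genes whose 12 log2 ratios resembled the leading Smoc2 probe most, among 24674 genes by their brightest probe, were Rasl11b (Pearson r = 0.963), B4galt1 (r = 0.955) and Gadd45g (r = 0.950), where the median gene had −0.02. These are descriptions over 12 pairs that fall into 3 comparisons, and they include the 6 h values that chose Smoc2. The 6 h means of these 3 genes were smaller in size than that of Smoc2, at −0.12, −0.10 and −0.22. Their 12 h means were 0.31, 0.23 and 0.31, where the leading Smoc2 probe had −0.01, and their male-female means were 0.48, 0.36 and 0.34. The gene most like Pigt was listed as LOC239564 (r = 0.975) and the one most like Qpct was Ccdc74a (r = 0.967).

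Genes from the same families and pathways were followed through 9 lists, of which 123 of 130 genes were measured by their brightest probe. At 6 h, 2 of the 123 genes rose and 2 fell, where 1.74% of all genes were called, 0.514% higher and 1.22% lower. Those 4, named after their values were seen, were genes of RNA-binding proteins. Hnrnpdl (0.24) and Hnrnpll (0.16) were higher, and Hnrnpl (−0.44) and the U1 protein gene Snrnp70 (−0.34) lower. They came from the list around Hnrnpa0 (2 higher and 1 lower of 21 measured) and that around Snrpd3 (1 lower of 22). Both lists were made for members picked from the 6 h contrast, so no shared theme is read from them. Without 6 h pair 1 none of the 123 genes passed by limma (8 at an unadjusted p under 0.05), and without pair 2, with offset 0 or with median centring 1 did. Hnrnpl passed in 24 of 25 alternatives, Hnrnpdl in 20, and Hnrnpll and Snrnp70 in 16 each. The 6 h pairs also carry the Y-linked and tissue marker shifts given above, whose part in these 4 ratios was not tested. The other subunits of the GPI transamidase, Pigk, Pigs, Pigu and Gpaa1, had 6 h means of 0.02, 0.03, −0.08 and −0.02, and 0 of 25 measured GPI anchor genes passed. At 12 h, 0 of 123 passed, where 0.291% of all genes did.

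Between the sexes, 7 of the 123 genes rose in males and 6 fell by limma, where 7.27% of all genes were called, 3.57% higher and 3.69% lower. With median centring 4 rose and 7 fell. In the SPARC family Smoc1, the closest relative of Smoc2, rose by 0.89 ± 0.09 in 5 of 5 pairs (SD, adjusted p = 8.45e-06 by limma), while the matrix genes Sparc (−0.29) and Sparcl1 (−0.48) fell. Among 15 genes of the WNK pathway, the kinase Sgk1 rose by 1.16, the sodium, potassium and chloride cotransporter Slc12a2 by 0.27 and Wnk2 by 0.24, and none fell. In the list around Irf2bp2, its paralogue Irf2bpl (−0.36) and the interferon regulatory factor Irf1 (−0.20) fell, 2 of 4. The GPI synthesis genes Pigf (0.28) and Pigc (0.18) and the purine synthesis gene Prps2 (0.19) rose, and Hnrnpab (−0.12) and the aminopeptidase Lap3 (−0.15) fell. None of the 22 Sm and spliceosomal genes and none of the 3 RANKL pathway genes passed between the sexes.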

How the data were processed

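Each array's scanner file holds spot intensity in both channels and a log10 ratio of Cy5 over Cy3, made by the authors with Agilent Feature Extraction 7.5.1, per the file headers. A deposited series matrix holds the authors' log2 ratios and served as an alternative; its centring is not given in the sources used here. Intensities were corrected (normexp, offset 50) and loess-normalised with limma 3.58.1 in R 4.3.3, with data.table version 1.17.8. Outlier spots were left out, dye-swapped arrays averaged and signs turned so that DHT or male is on top. Probes well above background in a channel on at least 6 of 24 arrays were kept (35477). The 12 pairs were fitted together, 1 coefficient per comparison, with p-values adjusted by Benjamini-Hochberg over all kept probes and a threshold of 0.05. Signals per pool used Aquantile scaling. The number of arrays limits the precision. Nothing in the labels separates pools beyond different embryos. A gene in a list counts through its brightest probe. Probes were named through RefSeq by accession, symbol or synonym, or kept the file's name (9656 of 41174). The members, lists and tests were chosen with earlier results of these data known. Named genes were all members, list genes past the threshold (at most 3 per list and comparison) and the genes most correlated with Smoc2, Pigt and Qpct; outside that rule, the list genes called at 6 h and the other subunits of Pigt's complex were named too. Per the labels, each comparison was hybridised on its own day.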

Additional observations from a re-analysis of the deposited data

Results flagged for a closer look

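Both Snrpd3 probes had ratios on opposite sides of 0 in the DHT comparisons, below 0 in every pair at 6 h and above 0 in every pair at 12 h. The 12 h mean minus the 6 h mean was 0.79 at A_51_P176681 and 0.81 at A_52_P523179 (log2). The difference was not tested, because the 6 h values chose the gene. In 38 groups of 4 or 5 values of member probes, no pair of pools stood far from the others.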

How the results depend on the processing

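Of 485 values of member probes at 12 h under other settings, 484 kept their side of the threshold, and of 485 male-female values 448 did, with no called direction reversed. The 12 h count says little about stability, because several settings called 0 probes of the whole array at 12 h. Anpep stayed past the threshold between the sexes in 26 of 26 alternatives (−0.55 to −0.43, highest adjusted p 0.0242) and Qpct in 24 of 26. Member probes called between the sexes, 4, were 2 with normexp offset 0, with the scanner ratio, with each comparison fitted alone and with the 6 h pairs left out of the fit, and ranged from 1 to 4 when 1 pair was left out. They were 2 without male-female pair 1, 2 or 5 and 1 without pair 4, and the split of 2 higher and 2 lower was 0 and 3 with median centring. Fitting arrays singly with a dye term called 1 member probe at 12 h, Snrpd3 A_51_P176681 (0.32, adjusted p 0.0200), and 2 in the male-female minus 12 h contrast, Irf2bp2 and Anpep. No member probe was called at 12 h, or in that contrast, when 1 pair was left out.

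Counts over all probes moved more. The 599 probes at 6 h were 47 with offset 0, 271 with median centring, 50 with the scanner ratio, 996 with the series matrix, 312 fitted alone, 1707 with the dye term and 35 to 801 with 1 pair left out, the lowest without 6 h pair 1 (35) and pair 2 (45). The 98 at 12 h were 40 with outlier spots kept, 8 without background subtraction, 49 with offset 0, 28 with median centring, 0 with the series matrix, 172 without the filter, 30 with the stricter filter, 0 fitted alone, 3 without the 6 h pairs, 339 with the dye term, 0 with trend and robust spread, and 0 to 130 with 1 pair left out, 0 without any 12 h pair. The counts of 0 stood beside 4008 to 5195 probes at an unadjusted p under 0.05. The 2197 between the sexes were 1017 fitted alone and 1326 to 2206 with 1 pair left out. With the replicate number as a block across comparisons, 176 probes were called at 6 h, 6 at 12 h and 2317 between the sexes. Same-numbered pairs correlated at −0.06 to 0.27 in their deviations (6 of 10 over 0.1), and differently numbered pairs at −0.329 to 0.331. Whether the numbers pair the samples was not tested. For the related gene lists, whose alternatives were chosen after seeing the data, the 4 genes at 6 h were 1 with offset 0, median centring or the scanner ratio, 8 with the dye term, 2 with the replicate block and 0 to 5 with 1 pair left out; the 0 at 12 h was 1 with the dye term and 0 with any 1 pair left out (9 to 14 at an unadjusted p under 0.05); and the 13 between the sexes were 7 fitted alone and 10 to 16 with 1 pair left out. The causes were not tested. Leading probes kept the sign of their 6 h ratio under the 10 other settings tried.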

Other observations

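The vehicle pools of 12 h and 6 h differed in signal at some member probes by more than at nearly all other probes, and probes of 1 gene did not always do so together. At the second Smoc2 probe, A_51_P213045, the log2 signal was 9.03 ± 0.06 in 12 h vehicle pools (SD, n = 3) and 7.75 ± 0.07 in 6 h vehicle pools (SD, n = 4), a difference of 1.28 that 1.08% of probes matched in size. At the leading Smoc2 probe the difference was 0.01. Pigt differed by 1.77 at its leading probe, which was saturated on 2 of 6 channels of the 12 h vehicle pools, so that the scanner's limit may make this difference too small. Its second probe, without saturation, differed by −0.10. Hnrnpa0 differed by 1.75 and 1.52, at both probes. Over 35473 probes, 95% of differences lay between −0.77 and 0.93. Hybridisation day and time after treatment cannot be told apart here. The vehicle groups also differed in Y-linked RNA. Eif2s3y had 7.64 to 8.65 in the 6 h vehicle pools of pairs 2 to 4, 6.02 in that of pair 1 and 5.92 to 6.16 in 12 h vehicle pools. The part of this in the differences was not tested.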
